A study of Mus musculus with 31 samples.

Results

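The 9 genes described here encode Toll-like receptors and the proteins that work directly with them: the receptors Tlr1, Tlr2, Tlr3, Tlr4, Tlr6 and Tlr7, the co-receptors Cd14 and Ly96, and the adaptor Myd88. They were taken by gene symbol from the 55401 genes of the deposited files, with earlier results of these data known. All 9 were found and all 9 passed the filter on low counts, as did 14490 genes in all. Their RNA was read in 12 RNA-seq libraries from sorted mouse astrocytes, glia that feed and shield neurons and react when the brain is inflamed.

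The 12 libraries fall into 4 groups of 3, named here by their labels. Mice labelled 2X cytokine received IL-1β (100 ng/mL) together with TNF-α (50 ng/mL) in PBS and a repeat of it at day 7, and mice labelled 2X PBS received PBS on both occasions. Mice labelled 1X cytokine received the same cytokines at day 7 only, and mice labelled 1X PBS received PBS at day 7 only. All injections went into both lateral ventricles, and cells were sorted 18 to 24 hours after the last one. All 4 groups are labelled as female C57Bl/6 mice of 10 weeks with no transgene named, carry the word SPF in their titles, and are called normal mice. A short description label names TNF-α alone for the cytokine groups, but both cytokines appear in the treatment protocol. The sources used here give neither the sort markers nor the number of animals behind a library. The p-values therefore reflect how far libraries of a group spread, and some of that spread may be technical.

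Toll-like receptors recognise molecules of microbes and of damaged cells. Tlr4 binds bacterial lipopolysaccharide through MD-2, the product of Ly96, after CD14 has handed it over. Tlr2 pairs with Tlr1 or Tlr6 to bind bacterial lipoproteins, and CD14 also assists this pairing. Tlr3 and Tlr7 sit in endosomes, where Tlr3 binds double-stranded RNA and Tlr7 binds single-stranded RNA. All of these receptors except Tlr3 signal through the adaptor MyD88, which the IL-1 receptor uses as well, whereas Tlr3 uses TRIF, the product of Ticam1. In the brain, microglia and blood-derived myeloid cells are known for the broadest set of these receptors, and astrocytes are known to express Tlr3.

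Stretches before the start of 3 of the genes are shown, taken from genes with both a promoter entry and a match to one of the motifs searched, so that the letters behind each match can be read. The sequences come from RefSeq on GRCm38.p6, on the minus strand, where 5 of the 9 genes had an entry. Capitals mark a match to the NF-κB consensus in Tlr2 and Tlr3, and to the core of the interferon-stimulated response element (GAAA, any 2 bases, GAAA) in Myd88.
Tlr2 (chr3:83841762-83841791): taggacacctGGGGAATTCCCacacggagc
Tlr3 (chr8:45410572-45410601): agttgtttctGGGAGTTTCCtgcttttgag
Myd88 (chr9:119340042-119340268): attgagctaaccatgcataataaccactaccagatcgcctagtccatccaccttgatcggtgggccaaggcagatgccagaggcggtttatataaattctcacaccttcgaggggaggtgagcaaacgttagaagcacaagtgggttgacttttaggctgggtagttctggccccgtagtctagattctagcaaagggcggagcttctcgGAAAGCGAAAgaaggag

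The search covered both strands of the 250 bases before each RefSeq start. The NF-κB consensus was found in 3.90% of all 32851 windows of that length, and among the 9 genes in those of Tlr2 and Tlr3. In Tlr2 the match lay 173 to 163 bases before the start and was read at overlapping positions, and in Tlr3 it lay 211 to 202 bases before. The Tlr3 stretch lies inside the first exon of GENCODE and RefSeq transcripts that begin further upstream. That of Tlr2 lies mostly before the only start GENCODE gives, and inside the first exon of a predicted RefSeq transcript. The Myd88 stretch overlaps no annotated exon and lies within introns of a longer Myd88 transcript and of Acaa1a on the other strand. The response element core was found in 2.98% of windows, and here in Tlr6 and in Myd88, where it lay 40 to 31 bases before the start. TTCNNNGAA, the core of the STAT motif, was in 7.02% of windows, in Tlr1 and, overlapping the response element core, in Myd88. TGANTCA, the core of the AP-1 motif, was in 6.75% of windows and in no window of these genes. A match describes letters in a window and was not tied to any value below.

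Before any comparison, 2 libraries stood apart from the others of their label. On the first principal component of all genes, which held 46.0% of the variance, 1X cytokine replicate 1 scored 39.8 and the other 1X cytokine libraries scored -29.3 and -38.8. Conversely, 1X PBS replicate 1 scored -41.2 and the other 1X PBS libraries 67.5 and 67.0. The 2X libraries did not split in this way, with scores of -40.7 to -30.0 in 2X cytokine and 11.0 to 17.8 in 2X PBS. Library totals ran from 1878418 to 5521679 estimated counts, and 3 counts, taken as the floor, equal 0.543 to 1.60 CPM, the counts scaled to a fixed library total after TMM normalisation. Results that rest on the 1X groups are therefore given with and without both replicate 1 libraries. Those 2 were singled out by expression itself, so values without them describe the remaining libraries and are not an independent test of the labels. Whether the labels of these 2 libraries were exchanged was not tested and cannot be told apart from a true difference with these files, which bears on every 1X value below.

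The defining genes of astrocytes were abundant in every library. The summed CPM of 10 astrocyte markers was 19384 to 23094 in 2X cytokine, 17724 to 19913 in 2X PBS, 10034 to 22319 in 1X cytokine and 6693 to 25807 in 1X PBS. Gfap, the intermediate filament of reactive astrocytes and named after its values were seen, went against that sum with 149.9, 119 and 113 CPM in 2X cytokine, against 1141, 1043 and 1095 CPM in 2X PBS (log2 fold change -3.10 ± 0.12 (SE), edgeR adjusted p = 4.99e-08 in the 6 libraries of both groups). Markers of other cells were present too. The summed CPM of 16 microglia markers was 487 to 927 in 2X cytokine, against 895 to 1235 in 2X PBS, and that of 10 monocyte and macrophage markers was 12.0 to 85.7 in 2X cytokine, against 383 to 397 in 2X PBS. For 10 neutrophil markers it was 13.8 to 170 in 2X cytokine, against 265 to 351 in 2X PBS, and for 8 oligodendrocyte markers 5525 to 6646, against 2931 to 4221. In these bulk libraries fewer cells of a type and less RNA per cell cannot be told apart.

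The levels of the 9 genes are compared with each other in TPM, which corrects for transcript length. In 2X cytokine the highest were Myd88, at 35.0 ± 5.87 TPM, and Tlr3, at 34.4 ± 13.5 TPM (SD, n = 3), which did not differ beyond their spread. Cd14 followed at 14.5 ± 6.78 TPM, then Ly96 at 8.00 ± 2.41 and Tlr2 at 4.92 ± 3.01. The remaining receptors averaged 3.78 ± 3.04 (Tlr4), 3.53 ± 5.35 (Tlr1), 1.93 ± 0.596 (Tlr7) and 1.50 ± 0.255 (Tlr6) TPM. Each neighbour in this order overlapped the next, and the Tlr1 mean came mostly from replicate 3, at 9.70 TPM. In 2X PBS the order was led by Cd14, at 130.1 ± 11.1 TPM, with no overlap with Myd88 at 41.8 ± 5.96 TPM, Tlr3 at 29.98 ± 1.45 TPM or Tlr2 at 17.3 ± 1.52 TPM, each of which was also clear of the next. Ly96 averaged 12.9 TPM and Tlr1 8.83 TPM, with overlapping libraries, while Tlr4, Tlr6 and Tlr7 lay between 1.11 and 4.11 TPM. By mean TPM Cd14 thus held the top place in 2X PBS and the third place in 2X cytokine. In 2X cytokine its libraries overlapped those of Ly96, and the distance between both means was within the larger SD.

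In 1X cytokine the mean order was Cd14 at 63.4 ± 85.2, Myd88 at 33.8 ± 9.71 and Tlr3 at 33.2 ± 10.8 TPM, and the spread of Cd14 exceeded its distance from Myd88. In 1X PBS Cd14 averaged 260.2 ± 220.3 TPM, Myd88 41.4 ± 11.4, Tlr2 33.7 ± 24.7 and Tlr3 18.5 ± 8.81 TPM, and none of these 4 was separated from the next by more than the larger SD. Between all 12 libraries the highest CPM of Cd14 was 68.0 times the lowest, that of Tlr2 41.8 times and that of Tlr1 23.4 times. The same ratio was 4.12 for Tlr3, 3.10 for Ly96 and 2.41 for Myd88, the narrowest of the 9.

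**Figure D1:**
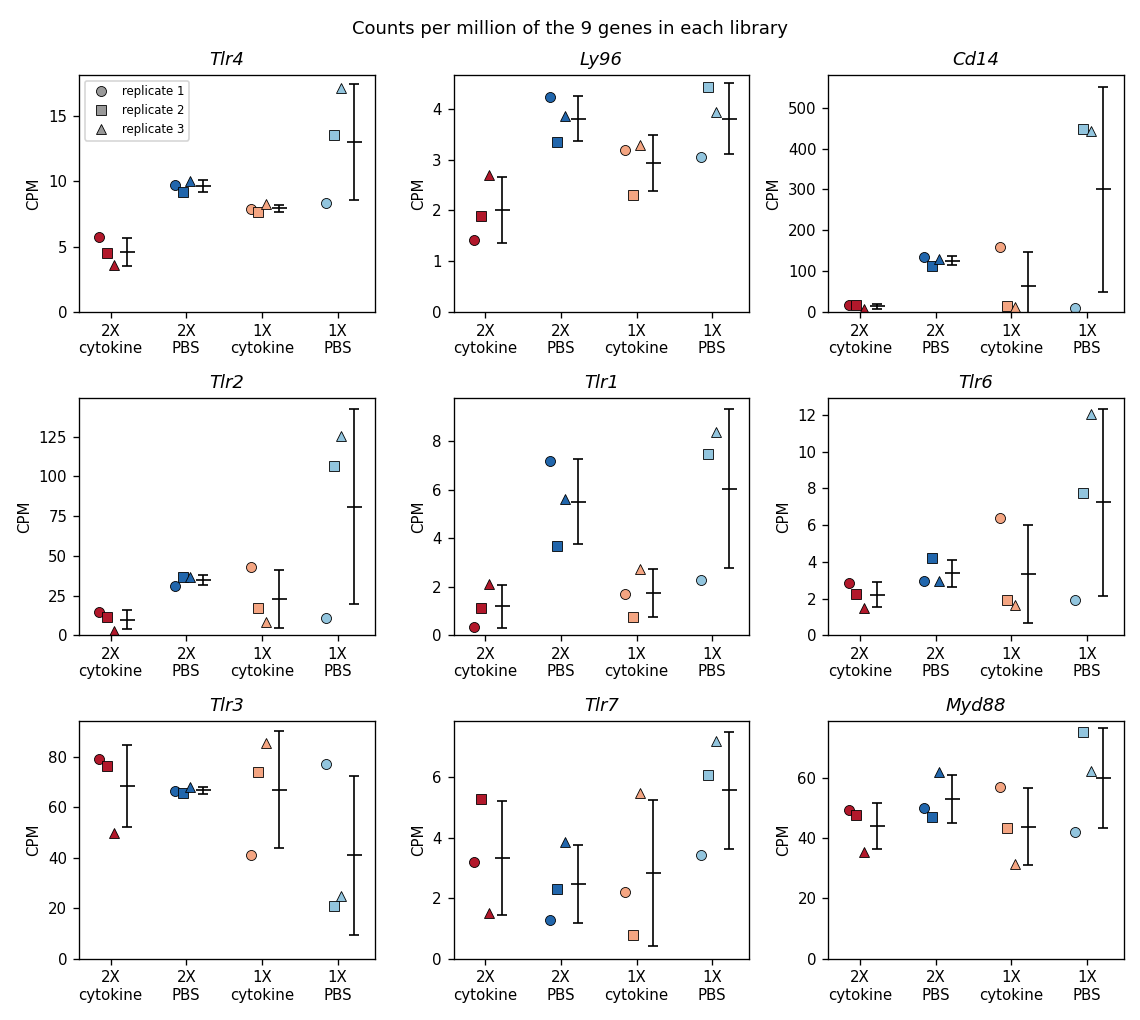
Level of each of the 9 genes in CPM (vertical axes, linear and starting at 0) in each library of the 4 groups, with the mean ± SD of 3 libraries in black. Cd14 lies at 6.60 to 17.7 CPM in 2X cytokine and at 113 to 134 CPM in 2X PBS, while for this gene replicate 1 of each 1X group lies far from the others of its group; lower error bars that pass 0 are cut off there.

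The first question was what repeated cytokine exposure changed relative to repeated vehicle, in 2X cytokine set against 2X PBS. Cd14 and Tlr2 were lower in all 2X cytokine libraries, and the differences in Tlr3 and Myd88 did not pass the test. The first fit shares 1 estimate of the spread over all 12 libraries, and the second uses the 6 libraries of this comparison alone. Both are given for Cd14, Tlr4, Tlr2, Tlr1 and Tlr3. For Ly96, Tlr6, Tlr7 and Myd88 the text below gives the fit of 6 only, and neither fit called them. In the fit of 12, edgeR's quasi-likelihood test called 0.0345% of all genes at an adjusted p under 0.05 and none of the 9, although 5 of the 9 had an unadjusted p under 0.05. In the fit of 6 it called 5.27% of all genes as lower and 1.95% as higher, and of the 9 genes it called Cd14, Tlr2 and Tlr4, all lower. DESeq2 on all 12 libraries called none of the 8 genes with a p, Cd14 having none, with 3 at an unadjusted p under 0.05. In edgeR without both 1X replicate 1 libraries 5.16% of all genes were lower, and with them Cd14, Tlr2, Tlr4 and Tlr1. The biological coefficient of variation was 0.237 in the fit of 12 and 0.118 in the fit of 6, and the 1X libraries are in the first fit only.

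Cd14, the co-receptor that transfers lipopolysaccharide, had 17.1, 17.7 and 6.60 CPM in 2X cytokine, against 134, 113 and 130.0 CPM in 2X PBS. Every 2X cytokine library lay far below every 2X PBS library. The gene (chr18:36725067-36726798, minus strand) averaged 13.8 ± 6.25 CPM in 2X cytokine and 125.8 ± 11.0 CPM in 2X PBS (SD, n = 3). It fell in the fit of 6 libraries by 3.22 ± 0.23 (SE) on the log2 scale at edgeR adjusted p = 5.43e-06, a 9.30-fold lower level. The fit of 12 gave -3.20 ± 1.19 (SE) and an adjusted p of 0.444. Leaving out any of the 6 libraries kept the call in the fit of 6, with log2 fold changes of -3.44 to -2.84.

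Tlr4, the signalling receptor for lipopolysaccharide, had 5.71, 4.52 and 3.60 CPM in 2X cytokine, against 9.73, 9.15 and 10.1 CPM in 2X PBS. In CPM the groups did not overlap, and the 2X PBS libraries lay close together. In TPM, which also depends on how counts were divided between transcripts of unequal length, it had 7.17, 2.83 and 1.33 in 2X cytokine, against 5.48, 3.31 and 3.55 in 2X PBS, and the groups overlapped. Its log2 fold change was -1.07 ± 0.29 (SE) in the fit of 6, at edgeR adjusted p = 0.0445, and -1.06 in the fit of 12, at 0.321, but -0.27 by limma-trend on TPM with a pseudocount of 1. This call was lost in 5 of the 6 fits that leave out 1 library, where adjusted p lay between 0.0977 and 0.139, and was kept at 0.0463 without 2X cytokine replicate 1. Tlr4 (chr4:66827584-66930284, plus strand) rested on 12 to 16 estimated counts a library in 2X cytokine.

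Ly96, which encodes the MD-2 protein that binds lipopolysaccharide beside Tlr4, had 1.43, 1.88 and 2.70 CPM in 2X cytokine, against 4.23, 3.34 and 3.85 CPM in 2X PBS. The groups did not overlap, at levels just above the floor of the libraries. Its log2 fold change was -0.88 ± 0.46 (SE) in the fit of 6 and did not pass the test, at edgeR adjusted p = 0.328. On the gene at chr1:16688051-16709611 the counts were 4.21 to 8.68 a library in 2X cytokine and 10 to 19.0 in 2X PBS, which limits what could be detected.

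Tlr2, the shared chain of the lipoprotein receptors, had 14.6, 11.7 and 3.00 CPM in 2X cytokine, against 31.3, 37.0 and 36.4 CPM in 2X PBS. No library of one group reached the other, and 2X cytokine replicate 3 was the lowest of all 12 libraries, as it was for Cd14. Tlr2 (chr3:83836272-83841767, minus strand) fell in the fit of 6 by 1.89 ± 0.33 (SE) on the log2 scale at edgeR adjusted p = 0.00449, a 3.71-fold lower level. The fit of 12 gave -1.87 ± 0.81 (SE) and an adjusted p of 0.496. Its call held in all 6 fits that leave out 1 of these libraries, with adjusted p up to 0.0351.

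Tlr1 and Tlr6, the partner chains of Tlr2, are alike in sequence and the counting model can divide their reads unevenly, so both the separate values and their sum are given. Tlr1 had 0.357, 1.13 and 2.10 CPM in 2X cytokine, against 7.20, 3.70 and 5.63 CPM in 2X PBS. Its log2 fold change was -2.07 ± 0.57 (SE) in the fit of 6 and missed the threshold at edgeR adjusted p = 0.0501. The fit of all libraries gave -2.09 ± 0.64 (SE) and did not call Tlr1, at edgeR adjusted p = 0.379. The fit of 10 libraries without both 1X replicate 1 libraries called it at 0.0419. Of the 6 fits that leave out 1 library, that without 2X cytokine replicate 3 called it, at -2.78 and edgeR adjusted p = 0.0349, and the others gave -2.31 to -1.65 at 0.0702 to 0.143. In TPM it had 0.193, 0.704 and 9.70 in 2X cytokine, against 12.8, 6.24 and 7.42 in 2X PBS, so that the groups overlapped. The 2X cytokine libraries held 1 to 7.13 estimated counts of it each.

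Tlr6 had 2.86, 2.26 and 1.50 CPM in 2X cytokine, against 2.96, 4.23 and 2.96 CPM in 2X PBS. In CPM these groups were separated by a narrow margin that came from rounding the counts before scaling. Estimated counts of 8.09 in 2X cytokine replicate 1 were rounded down. Those of 6.82 and 9.69 in 2X PBS replicates 1 and 3 were rounded up, and without rounding the groups overlap. In TPM they overlapped, and the log2 fold change was -0.66 ± 0.47 (SE) at edgeR adjusted p = 0.491 in the fit of 6. The sum of Tlr1 and Tlr6 was 3.21, 3.39 and 3.60 CPM in 2X cytokine, against 10.2, 7.92 and 8.59 CPM in 2X PBS. In 2X cytokine the sum was steadier than either gene, with an SD of 0.194 CPM, against 0.873 CPM for Tlr1 and 0.680 CPM for Tlr6. In the other groups the SD of the sum exceeded that of Tlr6. It was 1.15 against 0.729 CPM in 2X PBS, 2.77 against 2.66 CPM in 1X cytokine and 8.29 against 5.10 CPM in 1X PBS.

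Tlr3, the endosomal receptor for double-stranded RNA, had 79.3, 76.5 and 49.8 CPM in 2X cytokine, against 66.4, 65.5 and 68.1 CPM in 2X PBS. The 2X PBS libraries lay within the range of the 2X cytokine libraries. The log2 fold change was 0.029 ± 0.15 (SE) in the fit of 6, at edgeR adjusted p = 0.950, and 0.037 ± 0.42 (SE) in the fit of 12. Leaving out single libraries moved the first value between -0.089 and 0.23, so its sign was not fixed.

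Tlr7, the endosomal receptor for single-stranded RNA, had 3.21, 5.27 and 1.50 CPM in 2X cytokine, against 1.27, 2.29 and 3.85 CPM in 2X PBS. The groups overlapped throughout, and at 3 to 14 estimated counts a library a difference of the observed size, a log2 fold change of 0.36 ± 0.57 (SE), was not detectable. Myd88, the adaptor, had 49.3, 47.8 and 35.4 CPM in 2X cytokine, against 49.9, 47.2 and 62.2 CPM in 2X PBS. Here too the groups overlapped, and the log2 fold change was -0.27 ± 0.15 (SE) at edgeR adjusted p = 0.367 in the fit of 6.

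**Figure D2:**
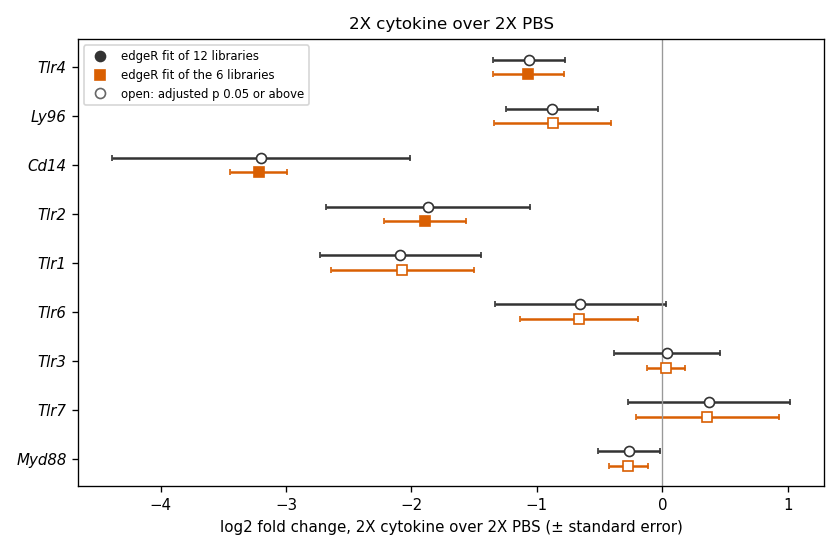
Log2 fold change of 2X cytokine over 2X PBS (horizontal axis, with standard errors) for each gene in the edgeR fits of 12 and of 6 libraries; filled symbols have an adjusted p under 0.05. Estimates of both fits nearly coincide, as for Cd14 at -3.20 and -3.22, while the standard error of Cd14 is 1.19 in the fit of 12 and 0.23 in the fit of 6.

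In CPM the libraries of both 2X groups did not overlap for 6 of the 9 genes, all lower in 2X cytokine, where 14.1% of all genes tested had this pattern. Those genes are Cd14, Tlr2, Tlr1, Tlr6, Tlr4 and Ly96, and Tlr6 was separated only through the rounding of counts. In TPM, a scale added to this count after the data were seen, 3 of the 9, Cd14, Tlr2 and Ly96, were without overlap and lower, where 10.9% of all genes were. The median log2 fold change of the 9 was -0.88 in both fits, against -0.0034 and -0.0047 over all genes tested. Of the lists of cell markers, 5 of 8 tested monocyte and macrophage genes, 4 of 8 neutrophil genes and 6 of 16 microglia genes were also called lower in the fit of 6, beside 5.27% of all genes, and none of these was called in the fit of 12. The mean was higher in 2X cytokine for 3 of the 8 neutrophil genes and 3 of the 16 microglia genes, none of them called, and 6 of 8 oligodendrocyte genes were called higher, beside 1.95% of all genes. Of the 10 monocyte and macrophage markers 5 were at 0 in some 2X cytokine library, against 0 in 2X PBS. Of the 10 neutrophil markers 3 were at 0 in some library of either group. The part of these cells in the lower levels of Cd14 and Tlr2 was not tested. Lyz2, the lysozyme of myeloid cells, had 53.9, 25.2 and 6.90 CPM in 2X cytokine, against 297, 312 and 309 CPM in 2X PBS.

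A single exposure was examined in 1X cytokine set against 1X PBS. For several of the receptors the libraries of a label differed more from each other than the groups did. Cd14 had 160.3, 15.4 and 12.6 CPM in 1X cytokine, against 9.89, 449 and 442 CPM in 1X PBS. Replicate 1 of 1X cytokine exceeded every 2X PBS library, and replicate 1 of 1X PBS lay among the 2X cytokine libraries. Tlr2 had 43.0, 16.9 and 8.24 CPM in 1X cytokine, against 11.0, 107 and 125 CPM in 1X PBS. Tlr6 had 6.39, 1.92 and 1.65 CPM in 1X cytokine, against 1.90, 7.76 and 12.1 CPM in 1X PBS, and so repeated the split of Tlr2, as did its sum with Tlr1 at 8.11, 2.69 and 4.40 CPM, against 4.18, 15.2 and 20.4 CPM.

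Tlr3 ran opposite to these genes in the 1X groups. It had 41.0, 74.1 and 85.7 CPM in 1X cytokine, against 77.2, 20.8 and 24.8 CPM in 1X PBS, with its lowest levels in the 2 libraries where Cd14 was highest. The summed astrocyte markers in the same libraries were 10034, 19927 and 22319 CPM in 1X cytokine, against 25807, 7137 and 6693 CPM in 1X PBS. The summed monocyte and macrophage markers were 347, 32.3 and 33.0 CPM in 1X cytokine, against 33.9, 1542 and 1388 CPM in 1X PBS. Of the 10 monocyte and macrophage markers 4 were at 0 in some library of 1X cytokine, against 1 in 1X PBS, and none was at 0 in every library of a group. For the 10 neutrophil markers these counts were 3 in 1X cytokine and 2 in 1X PBS. The part of these lists in the levels of Tlr3 and Cd14 was not tested.

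The remaining genes were Tlr4, Myd88, Ly96, Tlr1 and Tlr7. Tlr4 had 7.87, 7.68 and 8.24 CPM in 1X cytokine, against 8.37, 13.6 and 17.2 CPM in 1X PBS, and was the only one of the 9 whose groups did not overlap in CPM, where 3.29% of all genes were separated in that direction. In TPM both Tlr4 and Tlr7 were, where 1.43% of all genes were. Myd88 had 57.0, 43.4 and 31.3 CPM in 1X cytokine, against 42.2, 75.4 and 62.4 CPM in 1X PBS. Ly96 stayed between 2.30 and 3.30 CPM in 1X cytokine, against 3.04 to 4.43 CPM in 1X PBS, and Tlr1 between 0.768 and 2.75 CPM, against 2.28 to 8.35 CPM. Tlr7 had 2.21, 0.768 and 5.49 CPM in 1X cytokine, against 3.42, 6.10 and 7.19 CPM in 1X PBS.

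In the fit of 12 libraries edgeR called 0% of all genes here and none of the 9, with 3 of the 9 at an unadjusted p under 0.05, and limma-trend called none of the 9 either. DESeq2 called none of the 8 genes with a p, Cd14 having none. The log2 fold changes were -2.21 for Cd14 (standard error 1.07), -1.77 for Tlr2 (0.73) and 0.72 for Tlr3 (0.43), each at an adjusted p of 0.866. Without 1X PBS replicate 1 alone edgeR called 492 of 15106 tested genes lower and 649 higher. Of the 9 it called 5: Cd14, Tlr2, Tlr1 and Tlr4, all lower, and Tlr3, higher. Without both replicate 1 libraries 6 of the 9 were lower, where 11.5% of all genes were called lower, and Tlr3 was higher, where 12.0% were called higher.

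In those 10 libraries Cd14 had a log2 fold change of -4.95 ± 0.27 (SE) at edgeR adjusted p = 7.61e-08, a 30.9-fold lower level in 1X cytokine. Tlr2 had -3.12 ± 0.36 (SE), and Tlr6, Tlr1, Tlr4 and Myd88 had -2.42, -2.24, -0.93 and -0.83, at edgeR adjusted p-values up to 0.0301. Tlr3 had 1.82 ± 0.21 (SE), a 3.52-fold higher level. Ly96 and Tlr7 did not pass, at -0.58 and -1.18. Each of these values rests on 2 libraries a group.

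**Figure D3:**
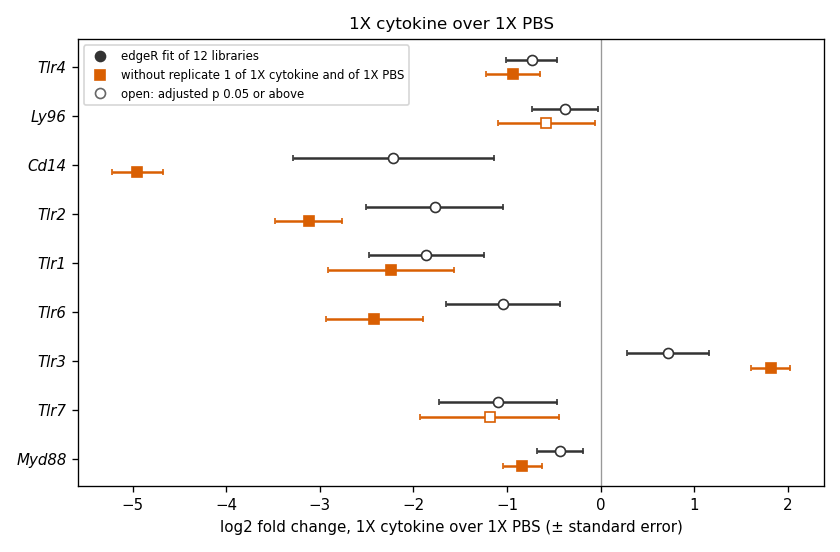
Log2 fold change of 1X cytokine over 1X PBS (horizontal axis, with standard errors) in edgeR fits of all 12 libraries and of the 10 that remain without replicate 1 of each 1X group; filled symbols have an adjusted p under 0.05. Cd14 lies at -2.21 with all libraries and at -4.95 without the pair, and Tlr3 lies on the other side of 0 at 0.72 and 1.82.

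Between 2X cytokine and 1X cytokine, which asks whether a second exposure gives another state than a first, edgeR called 0.0276% of all genes and none of the 9, with 1 at an unadjusted p under 0.05. DESeq2 called none of the 8 genes with a p, Cd14 having none. Tlr4 was the only gene without overlap in CPM, at 3.60 to 5.71 CPM in 2X cytokine, against 7.68 to 8.24 CPM in 1X cytokine, where 6.76% of all genes were separated in that direction. Its log2 fold change was -0.78 ± 0.30 (SE) at edgeR adjusted p = 0.689. In TPM the Tlr4 libraries overlapped, and limma-trend gave 0.11 and 0.066, of the other sign. Cd14 had a log2 fold change of -2.25 (standard error 1.17) with all libraries and of -0.060 (0.33) without both 1X replicate 1 libraries, so the value depended on those libraries. Without them edgeR called 0.0202% of all genes and none of the 9.

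Between 2X PBS and 1X PBS, which differ in the number of vehicle injections, edgeR called 0% of all genes and none of the 9, and 0 of the 9 had an unadjusted p under 0.05. No gene of the 9 was without overlap, against 6.05% of all genes that were separated and lower. The log2 fold changes were -1.26 for Cd14, -1.22 for Tlr2, -1.10 for Tlr6 and 0.73 for Tlr3, with standard errors of 0.43 to 1.04. Without both 1X replicate 1 libraries Cd14, Tlr2 and Tlr6 were called lower in 2X PBS, where 8.47% of all genes were, at -1.81, -1.70 and -1.48. Tlr3 was called higher, at 1.56 with an edgeR adjusted p of 6.58e-05, where 10.1% of all genes were. This comparison, the one before it and the next share libraries with the cytokine comparisons above.

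The difference between both cytokine responses, 2X cytokine over 2X PBS minus 1X cytokine over 1X PBS, was tested as an interaction. With all libraries edgeR called 0% of genes and none of the 9, with 0 of the 9 at an unadjusted p under 0.05, and DESeq2 called none of the 8 genes with a p, Cd14 having none. Cd14 had a difference of -0.99 ± 1.54 (SE). Without both 1X replicate 1 libraries 9.33% of genes were called, among them Cd14 at 1.75 (standard error 0.37, edgeR adjusted p 0.00949) and Tlr3 at -1.77 (standard error 0.26, edgeR adjusted p 0.000713). In those 10 libraries Cd14 was lower in both cytokine groups than in their PBS groups and by less after 2X, and Tlr3 was higher in 1X cytokine, while its log2 fold change of 0.044 ± 0.15 (SE) in 2X cytokine over 2X PBS did not pass the test. The sign of the Cd14 difference thus turned with the libraries included.

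**Figure D4:**
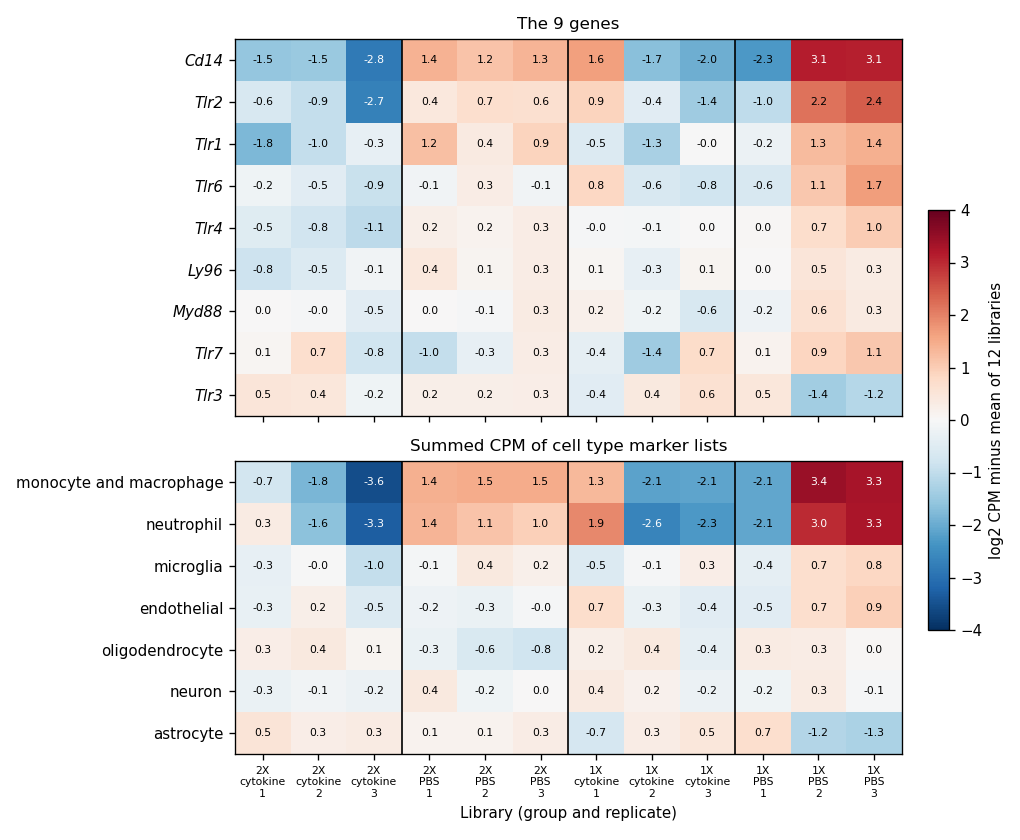
Upper panel: log2 CPM of each of the 9 genes minus its mean over 12 libraries (columns, by group and replicate). Lower panel: the same for the log2 of the summed CPM of 7 lists of cell type markers. Cd14 and Tlr2 are high in the 2X PBS libraries, 1X cytokine replicate 1 and 1X PBS replicates 2 and 3, where Tlr3 and the astrocyte list are lowest in the last 2 of these.

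The genes whose pattern over the 12 libraries lay nearest to each member were found by the root mean square difference of centred log2 CPM among 12037 protein-coding candidates. This is a description, and all points share their libraries and depth. Nearest to Cd14 were Lcp1, an actin-bundling protein of white blood cells, C5ar1, the receptor for complement fragment C5a, and Cytip, a lymphoid and myeloid adaptor, at 0.28 to 0.30 log2 units. Lcp1 had 13.6, 17.3 and 8.40 CPM in 2X cytokine, against 113, 95.4 and 105 CPM in 2X PBS. Nearest to Tlr2 were Pmaip1, a cell death gene, Cd33, a sialic acid-binding receptor of myeloid cells, and Lcp2, a signalling adaptor of blood cells, at 0.24 to 0.31.

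Tlr3 varied less, with an SD of log2 CPM of 0.67 against 2.17 for Cd14, which makes small differences easier to reach, and Brinp3 was among its nearest genes, at 0.16 log2 units. Nearest to Tlr4 were Trim30d, Xdh and Ptpn1 at 0.19 to 0.24, and nearest to Tlr6 were Gsdmd, which encodes the pore-forming protein gasdermin D, Rin3 and Fxyd5 at 0.18 to 0.22.

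Myd88 varied little and its neighbours Cnnm4, Impdh2 and Cnn2 lay at 0.13 to 0.14. Ly96 was nearest to Rbms1, Hfe and Vwa5a at 0.17 to 0.19. For Tlr1 Ptpn18 and Sdf2l1 were among the nearest, at 0.44 and 0.50, and for Tlr7 they were Echdc3, Prorsd1 and Kdr at 0.51 to 0.54. The last 2 members rest on few counts, and nothing lay close to them.

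Other genes of the pathway were read from lists in the fit of 6 libraries of 2X cytokine and 2X PBS. These lists were chosen with earlier results of these data known. In the fit of 12 none of the genes of these lists was called. The fit of 6 called 5.27% of all genes lower and 1.95% higher, against which the counts below are to be read. Of the 6 further Toll-like receptor genes Tlr5, Tlr8, Tlr9 and Tlr11 did not pass the filter on low counts. Tlr13, which in mice recognises bacterial ribosomal RNA, had 3.21, 3.01 and 2.10 CPM in 2X cytokine, against 13.1, 13.6 and 10.1 CPM in 2X PBS, and fell by 2.15 on the log2 scale. Tlr12, a receptor for a parasite protein in mice, had 2.07 ± 0.488 CPM in 2X cytokine and 4.96 ± 0.176 CPM in 2X PBS (SD, n = 3) and did not pass, at edgeR adjusted p = 0.104.

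Of 5 genes for ligand handling and receptor folding 2 were called, both lower in 2X cytokine. Lbp, the plasma protein that loads lipopolysaccharide onto CD14, had 99.3, 119.8 and 110.4 CPM in 2X cytokine, against 248, 176 and 214 CPM in 2X PBS, a log2 fold change of -0.94 ± 0.13 (SE). Unc93b1, which carries nucleic acid receptors such as Tlr3 and Tlr7 to endosomes, had 43.9, 53.1 and 29.4 CPM in 2X cytokine, against 90.2, 75.0 and 84.4 CPM in 2X PBS. It fell by 0.99 on the log2 scale, while its client Tlr3 did not differ detectably. Hsp90b1, the chaperone of most of these receptors, had 448 ± 37.8 CPM in 2X cytokine and 513 ± 11.5 CPM in 2X PBS (SD, n = 3), and Cd36, a scavenger receptor that assists Tlr2, had 5.74 ± 4.95 and 4.94 ± 2.14 CPM.

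Among 14 tested adaptors and kinases Irak4, the first kinase bound by MyD88, and Pik3ap1, an adaptor to PI3 kinase, were called lower, and none was called higher. Irak4 had 10.00, 8.29 and 10.8 CPM in 2X cytokine, against 17.4, 18.8 and 16.6 CPM in 2X PBS. Pik3ap1 had 11.1, 12.4 and 2.40 CPM in 2X cytokine, against 29.6, 22.2 and 22.8 CPM in 2X PBS. Traf6, the ubiquitin ligase downstream of the IRAK kinases, had 34.5 ± 2.34 CPM in 2X cytokine and 29.1 ± 0.551 CPM in 2X PBS (SD, n = 3), and Ube2n, its partner enzyme, had 84.5 ± 4.48 and 81.2 ± 2.01 CPM. The median log2 fold change of this list was -0.056, close to that of all genes.

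Of 7 tested inhibitors 1 was called. Ly86, which encodes MD-1, the partner of the Tlr4-like receptor Cd180, had 9.28, 8.67 and 8.10 CPM in 2X cytokine, against 30.9, 72.0 and 49.4 CPM in 2X PBS, a log2 fold change of -2.60. Tollip, an inhibitor of the IRAK kinases, had 199 ± 3.71 CPM in 2X cytokine and 160.4 ± 14.4 CPM in 2X PBS, and Nfkbia, the NF-κB inhibitor IκBα, had 305 ± 54.1 and 355 ± 23.2 CPM (SD, n = 3), and neither passed. Among 12 kinases and transcription factors 4 were called, all lower: Nfkb2, Relb, Irf7 and Irf5. Nfkb2, an NF-κB subunit, had 23.6, 24.9 and 22.8 CPM in 2X cytokine, against 48.3, 42.4 and 44.1 CPM in 2X PBS, and Irf3, a factor downstream of Tlr3, had 59.3 ± 2.61 and 62.6 ± 1.99 CPM (SD, n = 3). Relb, another subunit, averaged 15.5 ± 3.54 CPM in 2X cytokine and 32.1 ± 5.88 CPM in 2X PBS (SD, n = 3). The interferon regulatory factors Irf7 and Irf5 averaged 9.03 and 6.31 CPM in 2X cytokine, against 17.1 and 12.9 CPM in 2X PBS.

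Genes that these receptors are known to induce had the lowest median of the 6 lists. In the fit of 6 libraries 10 of 12 were called lower and 1 higher in 2X cytokine, where 5.27% of all genes were lower and 1.95% higher, at a median log2 fold change of -1.93. Il1b, the gene of one of the injected cytokines, had 8.93, 9.80 and 1.80 CPM in 2X cytokine, against 195, 141 and 142 CPM in 2X PBS, a log2 fold change of -4.59 ± 0.30 (SE). Ccl2, a chemokine for monocytes, had 4.28, 3.77 and 3.30 CPM in 2X cytokine, against 37.7, 28.9 and 30.2 CPM in 2X PBS. Saa3, an acute-phase gene, had 0.357, 0.377 and 0 CPM in 2X cytokine, below the floor, against 61.8, 70.4 and 60.1 CPM in 2X PBS, and Ccl5, a chemokine, had 0.357, 0.377 and 0 CPM, against 5.08, 6.87 and 7.99 CPM.

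The exception in direction was Nfkbiz, which encodes the NF-κB cofactor IκBζ and was named after its values were seen. It had 381, 325 and 236 CPM in 2X cytokine, against 175, 171 and 178 CPM in 2X PBS, and in the fit of 6 its log2 fold change was 0.84 (edgeR adjusted p = 0.00402). In the 1X groups Nfkbiz had 338, 253 and 146 CPM in 1X cytokine, against 172, 444 and 478 CPM in 1X PBS. Without both 1X replicate 1 libraries all 12 inducible genes, Nfkbiz included, were called lower in 1X cytokine, where 11.5% of all genes were.

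**Figure D5:**
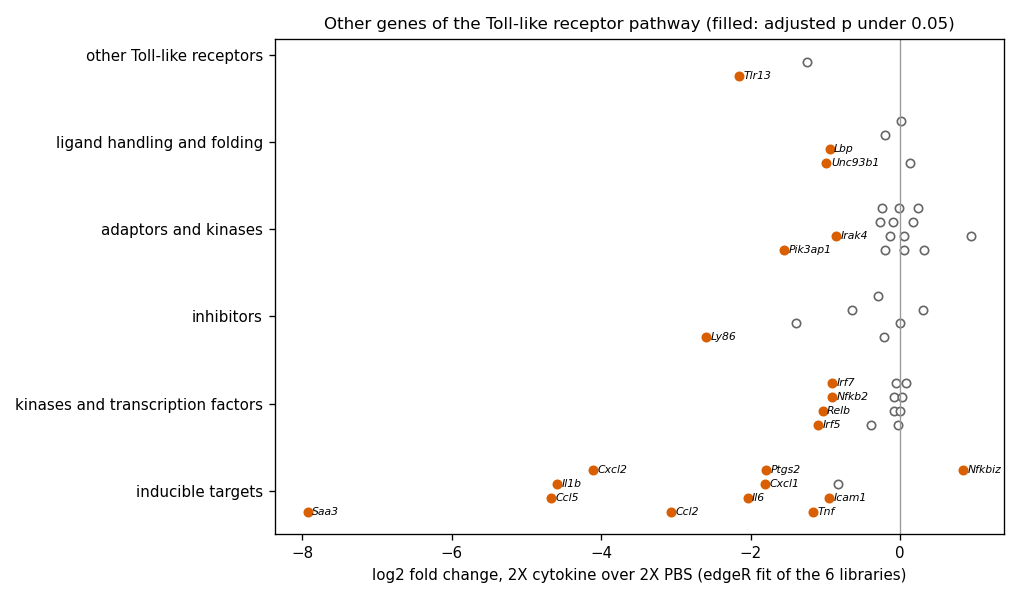
Log2 fold change of 2X cytokine over 2X PBS (horizontal axis, edgeR fit of 6 libraries) for the tested genes of 6 pathway lists (rows); filled symbols with names have an adjusted p under 0.05. Inducible targets reach furthest to the left, Nfkbiz lies at 0.84, and the positions of Saa3 and Ccl5 depend on the prior count of the fit, since their 2X cytokine libraries are at or near 0.

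Reads were also divided between transcripts of 2 members. The share of Myd88 counts given to its retained-intron transcript was 10.3%, 13.98% and 13.7% in 2X cytokine, against 6.51%, 5.32% and 1.70% in 2X PBS. The groups did not overlap, and the exact permutation test (two-sided) gave p = 0.1, the smallest that 3 against 3 can give, and 0.4 after Benjamini-Hochberg adjustment over 4 tests of transcript shares. In the 1X groups the share was 8.17%, 3.22% and 5.63% in 1X cytokine, against 3.45%, 7.04% and 1.36% in 1X PBS (exact permutation p = 0.5, adjusted 0.6). Myd88 (chr9:119335934-119341411, minus strand) overlaps Acaa1a on the opposite strand, which had 203 to 307 CPM, and the sources used here do not say whether counting used strand, so some reads of the overlap may belong to either gene.

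Tlr3 (chr8:45395665-45411080, minus strand) has transcripts from an upstream and a downstream start. The share given to the downstream start varied from 0.709% to 71.9% between libraries without separating the groups, with exact permutation p = 0.4 for 2X and 0.6 for 1X, both 0.6 adjusted. The division between starts is therefore not stable, and only the sum over transcripts is used for Tlr3.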

How the data were processed

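RNA-seq libraries of sorted astrocytes were made with SMART-Seq2 and quantified with kallisto 0.46.1 on the GRCm38 transcriptome, per the labels' protocols. The deposited tables hold, for 142604 transcripts per library, an estimated count that the authors left unscaled between libraries and a TPM value that the authors scaled to a fixed sum, per the file headers. Estimated counts were summed per gene and rounded to whole numbers for the tests and for CPM. The labels' protocols also name TMM, CPM and DESeq2, and those results were not used here. Gene positions are from GENCODE M21 on GRCm38, which holds 98.1% of the versioned gene identifiers, and no position is given for Tlr6.

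The test was edgeR 4.0.16 under R 4.3.3 (quasi-likelihood F test, filterByExpr, TMM, 1 coefficient per group, Benjamini-Hochberg over all genes tested, threshold 0.05) in 1 fit of 12 libraries. A standard error (SE) is the size of a log2 fold change over the square root of its F. CPM values are on TMM-scaled library sizes. Depth and floors of 3 counts cover counting error only, since PCR copies were not separated. The procedure was tested on simulated counts. Other settings tried were DESeq2 1.42.0, RLE scaling, all genes unfiltered, limma-trend (limma 3.58.1) on log2(TPM + 1) and log2(TPM + 0.1), a block for replicate number, fits of just the compared groups, and fits without single libraries or both 1X replicate 1 libraries. The 19 ATAC-seq samples were not analysed here, and 10 of them have labels that contradict each other.

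The 9 genes, the pathway and marker lists and the tests were chosen with earlier results of these data known. All 9 genes are named. From each pathway list the rule names up to 4 genes with the smallest p in 2X cytokine against 2X PBS in the fit of 12 and the gene with the highest mean TPM, from each marker list up to 2 genes with the highest mean TPM, and 3 nearest genes per member with a mean CPM of at least 5. Some of these are not reported here.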

Additional observations from a re-analysis of the deposited data

How the results depend on the processing

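For 40 log2 fold changes, those printed for the 9 genes and those of pathway genes called in the 6 libraries, 798 values were computed under the alternatives: 711 kept direction and side of the threshold, 72 passed it in addition, 9 changed sign and 6 had no adjusted p. None of the 40 had a call with all 12 libraries that could be lost. Those were Tlr3 in 2X cytokine over 2X PBS (-0.059 and -0.036 without 2X cytokine replicate 1 or 2), Tlr7 there (-0.10 without 2X cytokine replicate 2), Tlr4 in 2X over 1X cytokine (0.11 and 0.066 by limma-trend), Cd14 in 2X PBS over 1X PBS (0.18 and 0.22 by limma-trend), and the Cd14 difference between responses (1.20 without 1X cytokine replicate 1, 1.75 without both 1X replicate 1 libraries). Leaving out 1 library gave -0.059 to 0.23 for Tlr3, -0.10 to 0.80 for Tlr7 and -1.46 to 1.20 for the Cd14 difference. Of 19 further fold changes of the 9 genes, not printed above, 12 changed sign under some alternative: 4 of 7 in 2X over 1X cytokine, 3 of 5 in 2X PBS over 1X PBS and 5 of 7 in the difference, where Tlr2 ran from -0.68 to 1.23. The cause was not tested.

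For 2X cytokine against 2X PBS the main count of 5 genes was 114 by DESeq2, 460 without filter, 1046 in the 6 libraries alone, 2 with the replicate block, 0 to 125 leaving out 1 library and 1042 without both 1X replicate 1 libraries. The member count of 0 was 2, 3 and 4 without filter, in the 6 libraries and without both. In the 6 libraries, leaving out 1 (added after the data were seen) gave 623 to 910 genes and 2 to 3 members. For 1X cytokine against 1X PBS the main count of 0 was 2 by DESeq2, 251 without filter, 6 and 5 by limma-trend, 0 to 1141 leaving out 1 library and 3489 without both, and the member count of 0 was 2 without filter, 0 to 5 leaving out 1 library and 7 without both. For 2X against 1X cytokine the 4 genes were 8 by DESeq2, 193 without filter, 9 by limma-trend on log2(TPM + 0.1), 0 in the 6 libraries alone or with the block, and 0 to 3 leaving out 1 library, with 1 member without filter. For 2X PBS against 1X PBS the 0 genes were 17, 97 and 1 by DESeq2, without filter and by limma-trend on log2(TPM + 1), 0 to 1116 leaving out 1 library and 2759 without both, with 0 to 2 members and 4. For the difference between responses 0 genes became 13, 70, 1 and 2, 0 to 17 and 1386 in the same order, with 2 members without both. Limma-trend moved the median of all genes by 0.13 and 0.15 in 1X cytokine against 1X PBS, 0.18 and 0.20 in 2X PBS against 1X PBS and -0.11 and -0.13 in the difference.

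Libraries with the same replicate number were not treated as paired. Their deviations correlated at -0.62 to 0.16, and the replicate block changed no member's call. The lowest values, -0.62, -0.39 and -0.30, were between the 1X groups, where the replicate 1 libraries stood apart. The correlations therefore cannot exclude pairing. Depth limits Ly96, Tlr1, Tlr6 and Tlr7, which had few counts.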
